A study of Mus musculus with 24 samples.

Results

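miR-21 was followed across 24 small RNA libraries of the mouse mammary gland as 1 of 510 listed miRNAs, chosen as the row that carries its name (mir-21). Of the 510 miRNAs, 364 had at least 1 count and 237, miR-21 among them, passed the filter on low counts and were tested. Tumor libraries came from primary mammary tumors of female PyMT mice on the FVB strain, which are heterozygous for the polyoma middle T oncogene under the MMTV promoter. This promoter is active mainly in mammary epithelium, so the oncogene is driven in that cell layer while whole tissue was sequenced. Normal libraries came from mammary glands of age-matched female FVB mice without the transgene. The study places the tumor groups at hyperplasia at week 6, adenoma or intraepithelial neoplasia at week 8, early carcinoma at week 10 and late carcinoma at week 12. There were 3 mice per genotype and week. Age and stage change together in the tumor groups.

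miRNAs are short RNAs that guide Argonaute proteins to mRNAs, mainly through pairing of the seed, bases 2 to 8 of the miRNA, with sites in the 3' UTR. miR-21 is widely described as oncogenic. Its known targets include the tumor suppressor Pdcd4, its transcription responds to STAT3 and AP-1, and it is often reported as high in human breast tumors, in cancer cells as well as in stroma. The comparison of tumor with normal tissue at each time point asks whether its level differs in this mouse model, and the comparison of time points asks whether it changes with age or stage.

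The mature sequences, taken from RefSeq on GRCm38.p6, are shown because they set what the count of miR-21 can hold. The seed is in capitals.
miR-21a-5p: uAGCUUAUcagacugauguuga
miR-21a-3p: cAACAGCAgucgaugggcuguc
miR-21b: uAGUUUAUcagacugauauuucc
miR-21c: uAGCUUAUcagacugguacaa
miR-21a-5p is the main product of the mouse gene and miR-21a-3p comes from the opposite arm of the same hairpin. The row for miR-21 names no arm, so counts of both arms cannot be told apart. Among 1738 mature sequences, 2 had the seed of miR-21a-5p, itself and miR-21c. miR-21c shares the first 15 bases with miR-21a-5p. Neither miR-21c nor miR-21b had a row of its own, and whether any of their reads entered the row of miR-21 is not described.

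On mm9, the hairpin of miR-21 was found on the minus strand at chr11:86397569-86397660, inside exon 12 of 12 of Vmp1, a gene of autophagy, and within the annotated UTR of that exon. The 5p arm lay at chr11:86397622-86397643 and the 3p arm at chr11:86397584-86397605. The mRNA of Vmp1 was not measured in these libraries. What the seed pairs with is shown for Pdcd4, an inhibitor of translation, whose annotated 3' UTR held 1 match to the seed. The window around it is printed, on mm9 at chr19:54003906-54003932 on the plus strand, and the capitals mark the match with the A that follows it.
Pdcd4 3' UTR site: aagtgtgggtgttctgATAAGCTActt
The letters ATAAGCT, searched on the sense strand alone, were in 6.1% of 19915 annotated 3' UTRs, and ATAAGCTA was in 1.74%. A match is a description of the letters, and no target mRNA was measured.

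miR-21 was abundant in every library. Its counts ran from 13805 to 80840 in libraries with 1032241 to 3931375 counts in total. It took between 1.29% and 2.32% of the counts of a normal library, with a median of 1.56%, and between 1.34% and 2.29% of a tumor library, with a median of 1.69%. The exact binomial 95% interval of such a share was at most 0.0495 percentage points wide and covers counting error only, since amplified reads are not independent molecules. Ranked by count within a library, miR-21 stood between 8 and 17 in normal glands and between 8 and 13 in tumors. By mean share over all libraries it was at rank 11, at 1.66%, next below miR-125b (1.95%) and miR-127 (1.76%) and next above miR-146b (1.66%) and miR-30d (1.60%). miR-127 belongs to the imprinted Dlk1-Dio3 domain, miR-125b is a relative of worm lin-4, and miR-146b is an NF-kB-responsive miRNA that restrains inflammatory signalling. Shares of different miRNAs carry the ligation bias of library preparation, so these ranks order counts, not molecules.

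Levels between libraries were compared as CPM, the count of miR-21 per 1000000 counts of the library after TMM scaling. At week 6 the normal glands of replicates 1, 2 and 3 had 12311, 13650 and 20961 CPM of miR-21. The week 6 tumors had 14263, 13273 and 13751 CPM. The tumors lay close together inside the wide range of the normal glands, where replicate 3 stood above the other 2. At week 8 the normal glands had 13540, 14245 and 17626 CPM. The week 8 tumors had 17797, 16229 and 22134 CPM. Replicate 3 was highest in both groups, and the lowest tumor lay below the highest normal gland.

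At week 10 the normal glands had 15370, 13648 and 15669.5 CPM. The week 10 tumors had 21209, 17139 and 17791 CPM. All 3 tumors stood above all 3 normal glands, the only time point without overlap. At week 12 the normal glands had 15781, 19196 and 20425 CPM. The week 12 tumors had 17909, 18307 and 16201 CPM, within the range of the normal glands. Over all 24 libraries the highest value was 1.80 times the lowest.

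**Figure D1:**
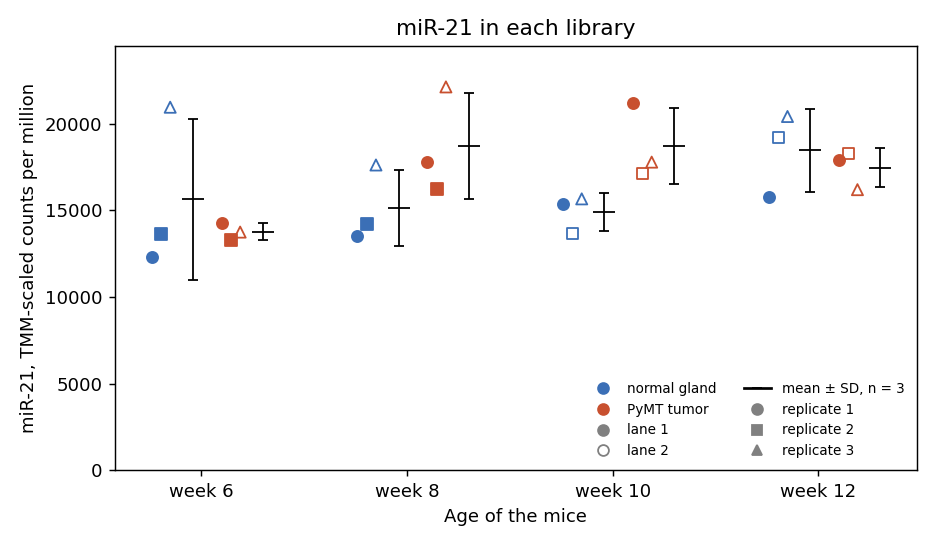
miR-21 in each library, in TMM-scaled CPM, by week and genotype; symbols give the replicate, filled symbols lane 1 and open symbols lane 2, and the bars the mean ± SD (n = 3). All 24 libraries sit between 12311 and 22134 CPM, and the tumors stand apart from the normal glands only at week 10.

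In ascending order of their means, the groups began with the tumors of week 6 at 13763 ± 495 CPM (SD, n = 3). The normal glands of weeks 10, 8 and 6 followed at 14896 ± 1091, 15137 ± 2184 and 15641 ± 4656 CPM. The tumors of week 12 had 17472 ± 1119 CPM and the normal glands of week 12 had 18467 ± 2406 CPM. The tumors of weeks 10 and 8 were highest, at 18713 ± 2186 and 18720 ± 3059 CPM. Every group overlapped its neighbour in this order, and the highest mean was 1.36 times the lowest.

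miR-21 did not pass the test for differential expression between tumor and normal at any time point. At week 6 its log2 fold change, tumor over normal, was -0.18 (SE 0.21, 95% interval -0.68 to 0.31, adjusted p = 0.462). At week 8 it was 0.28 (SE 0.22, interval -0.22 to 0.78, adjusted p = 0.321). At week 12 it was -0.09 (SE 0.21, interval -0.57 to 0.39, adjusted p = 0.725). These are edgeR quasi-likelihood tests with Benjamini-Hochberg adjustment over the 237 miRNAs of each week, and the threshold was 0.05. They measure the spread between mice of 1 group, of which there were 3.

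Week 10 came nearest to the threshold. The log2 fold change was 0.32 (SE 0.13, interval 0.01 to 0.64), with an unadjusted p of 0.0464 in the edgeR test and an adjusted p of 0.0724. An unadjusted p under 0.05 was reached by 64.1% of the tested miRNAs at that time point. Complete separation of the 2 groups was also common. The libraries of 67.9% of the tested miRNAs did not overlap between tumor and normal, 36.3% with the tumors higher, and at weeks 6, 8 and 12 this share was 68.8%, 51.9% and 62%. Under the other settings the adjusted p of week 10 ran from 0.0651 to 0.388, and none brought it under 0.05.

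The intervals bound how large a difference these libraries leave room for. As folds, tumor over normal, they ran from 0.625 to 1.24 at week 6 and from 0.856 to 1.72 at week 8. At week 10 they ran from 1.00 to 1.55 and at week 12 from 0.674 to 1.31. A change of 2-fold in either direction lay outside the interval of this main fit at every time point. Intervals were not drawn for the alternative fits given below, whose week 6 values reached a log2 fold change of -0.57. In whole tissue, a miRNA carried by fewer cells and a lower amount per cell cannot be told apart, and opposite changes in different cells would not be seen.

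Most miRNAs around miR-21 did move. Differentially expressed miRNAs, in either direction, made up 58.6% of those tested at week 6 and 35.4% at week 8 (55.3% with a replicate block, 26.6% higher and 28.7% lower). Their share was 60.3% at week 10 and 50.6% at week 12. Over the 4 time points, 189 of 237 miRNAs (79.7%) were called at 1 or more, and miR-21 was among the 48 (20.3%) called at none. By the size of its fold change, with the largest change at rank 1, it stood at ranks 219, 201, 202 and 229 of 237 at weeks 6, 8, 10 and 12. Its mean absolute log2 fold change over the weeks was 0.22, where the median miRNA had 0.93.

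**Figure D2:**
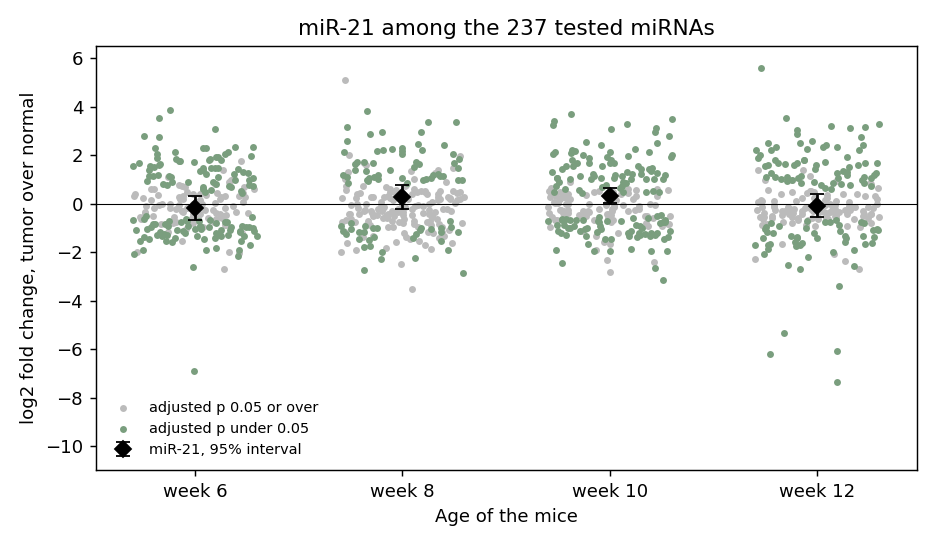
Log2 fold change, tumor over normal, of the 237 tested miRNAs at each week, spread sideways for display, in green where the adjusted p was under 0.05 and in gray otherwise; diamonds give miR-21 with its 95% interval. miR-21 lies between -0.18 and 0.32 at all 4 weeks, inside the gray band around 0.

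The mean over the 4 weeks of the difference in log2 CPM, tumor minus normal, was 0.10 (exact permutation test within weeks, two-sided, p = 0.284, 160000 arrangements). Sequencing lane moved with the normal values. The 6 normal libraries of lane 1 had a median of 13948 CPM (12311 to 15781) and the 6 of lane 2 had 18411 CPM (13648 to 20961). The tumors had medians of 17013 CPM on lane 1 and 17465 CPM on lane 2. Within lane 1 the mean difference was 0.26 (exact permutation p = 0.0278, the arrangements being 144), and within lane 2 it was -0.056 (exact permutation p = 0.792), so the direction did not hold across lanes.

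The coefficient of lane 2 against lane 1 was 0.28 (SE 0.11, adjusted p = 0.250 in edgeR) in the normal libraries and -0.0019 (adjusted p = 0.997) in the tumors, a fit added after the data were seen. It was called for 0 of 237 miRNAs in either set, with 41 in the normal libraries and 7 in the tumors at an unadjusted p under 0.05. All replicates 1 were on lane 1 and all replicates 3 on lane 2, so lane and replicate number cannot be told apart for these. Without normal replicate 3 the mean difference was 0.22 (exact permutation p = 0.0092), and without any other replicate it lay between 0.024 and 0.14. Whether lane accounts for the higher normal values was not tested.

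Among the 20 most counted miRNAs, miR-21 was 1 of 3 that were called at no time point, with miR-30d and let-7c, a family that represses growth genes. Of all 237 tested miRNAs, 20.3% were called at no time point, and 3 of 20 lies near that share. Another 10 of the 20 were called at all 4 time points and 7 at some, without a matching share over all miRNAs. By mean absolute log2 fold change miR-21 ranked 19 of these 20. miR-148a, the most counted miRNA and one that is plentiful in mammary epithelium and milk, was over-expressed in tumor with log2 fold changes of 1.57 to 2.06. miR-10b, a HOX-cluster miRNA, was under-expressed with log2 fold changes of -2.51 to -0.91.

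miR-146b, the next miRNA below miR-21 by mean share over all libraries, gave a contrast. Its mature sequence has a different seed.
miR-146b-5p: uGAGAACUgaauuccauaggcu
Its mean share of 1.66% pooled low normal and high tumor libraries. Its group means were 2974 to 3822 CPM in normal glands and 27982 to 32793 CPM in tumors. Those of miR-21 were 14896 to 18467 CPM in normal glands and 13763 to 18720 CPM in tumors. By group means miR-146b thus lay below miR-21 in the normal groups and above it in the tumor groups. It was over-expressed in tumor at all 4 time points, and its log2 fold changes were 3.09, 3.37, 3.10 and 3.10 in order of age (adjusted p from 4.92e-05 to 0.000225 in edgeR). miR-21 and miR-146b are both described as induced by inflammatory signalling.

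**Figure D3:**
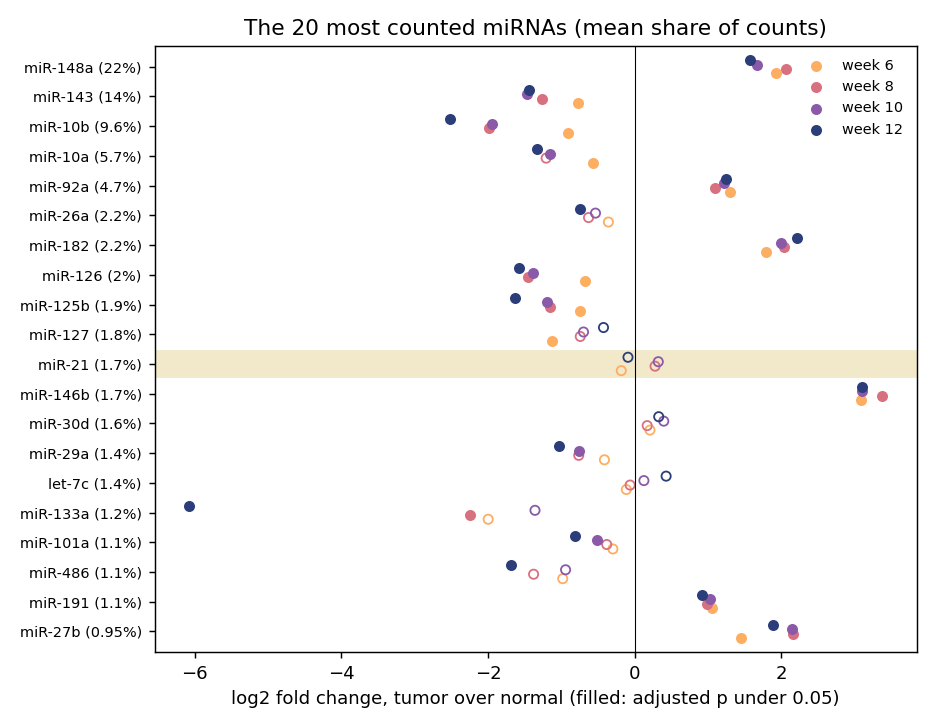
Log2 fold change, tumor over normal, of the 20 miRNAs with the highest mean share of counts (in brackets), by week; filled points have an adjusted p under 0.05. miR-21, shaded, has 4 open points near 0, while the next row, miR-146b, has 4 filled points between 3.09 and 3.37.

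The level of miR-21 was also steady between mice. Its SD within groups was 0.21 on the log2 scale, rank 24 from the lowest of 237, where the median miRNA had 0.37, and rank 13 among the 50 most counted. Its SD over all 24 libraries was 0.24, rank 14 from the lowest (7 among the 50), against a median of 0.67. The ratio of 1.80 between its highest and lowest library was rank 9 from the lowest (5 among the 50), and the median miRNA had 5.63. Counting noise raises these figures for rare miRNAs, which the ranks among the 50 leave out.

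The difference between tumor and normal was not shown to vary with time. The log2 fold changes of the 4 weeks spanned 0.51 in the fit of all libraries, with an adjusted p of 0.938 for the interaction in edgeR, which called 0 of 237 miRNAs (9, or 3.80%, at an unadjusted p under 0.05). From week 6 to week 12 the tumor-normal difference changed by 0.10 on the log2 scale (SE 0.25, interval -0.42 to 0.63, adjusted p = 0.793), where 1 miRNA was called (0.422%). This value was 0.39 with library sizes alone, 0.46 without the 5 most counted miRNAs and -0.17 without normal replicate 3, and none passed.

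Across the 4 weeks together miR-21 did not pass the test in normal glands (adjusted p = 0.603 in edgeR, 13.9% of miRNAs called) or in tumors (adjusted p = 0.333, 0 called and 39, or 16.5%, at an unadjusted p under 0.05). In normal glands miR-21 at week 12 differed from week 6 by 0.24 on the log2 scale (SE 0.18, interval -0.13 to 0.61, adjusted p = 0.384 in edgeR), while 21.1% of miRNAs were called in that comparison. Without normal replicate 3 it was 0.57 (adjusted p = 0.0510), over a range of adjusted p of 0.0510 to 0.973 for the alternatives. In tumors the same difference was 0.34 (SE 0.18, interval -0.03 to 0.72, adjusted p = 0.225), with 7.59% called. Without the 5 most counted miRNAs it was 0.64 and passed (adjusted p = 0.0293), while the adjusted p of the other settings was 0.0724 to 0.526. All 3 tumors of week 6 were below all 3 tumors of week 8, with a log2 difference of 0.44 (SE 0.18, interval 0.07 to 0.82, unadjusted p = 0.0221 and adjusted p = 0.328 in edgeR), which did not pass. That comparison called 0 miRNAs, with 27 (11.4%) at an unadjusted p under 0.05. From week 8 to week 10 and from week 10 to week 12 the tumor values differed by -0.00 and -0.10 on the log2 scale, with adjusted p of 0.999 and 0.976.

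Under the rule of the study, which turns folds below 1 into negative numbers and follows their steps between time points, the steps of miR-21 were 2.35, 0.03 and -2.35. Each fell within 0.4 SD of the mean step of the 364 miRNAs with a count, so miR-21 was assigned no increase or decrease at any step, and limits of 0.3 and 0.5 SD gave the same. On the log2 scale the same steps were 0.46, 0.04 and -0.46. The larger size under the rule includes the gap between -1 and 1 that a fold crossing no change has to jump.

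Cell type markers differed between tumor and normal libraries. Of 11 epithelial miRNAs, 9 were over-expressed in tumor at each time point, among them miR-200b and miR-429 of the miR-200 family, which maintains the epithelial state, with log2 fold changes of 2.30 to 2.88 and 2.11 to 2.50. The exception was miR-203, of stratified epithelium, which was under-expressed at week 12 (-1.87), and miR-205, of basal cells, was called at no time point. Their background was 29.1%, 21.9%, 32.9% and 29.1% of miRNAs called higher in tumor at weeks 6, 8, 10 and 12. The summed CPM of the epithelial markers was 15360 to 30667 CPM in the normal group and 57183 to 98544 CPM in the tumor group. All 5 fibroblast and smooth muscle markers were under-expressed at each time point, where 29.5%, 13.5%, 27.4% and 21.5% of all miRNAs were called lower, and their sum was 158608 to 276050 CPM CPM in the normal group and 70027 to 136934 CPM in the tumor group. The endothelial miR-126 was lower at each time point, by -0.67, -1.46, -1.39 and -1.57 on the log2 scale. miR-21 is expressed in epithelium and stroma alike, and the part of these marker differences in the values of miR-21 was not tested.

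Of 4 leukocyte markers, 3 were tested and 1 was lower at each time point, miR-150 of mature lymphocytes, with log2 fold changes of -0.77, -2.29, -2.66 and -2.58. miR-142, present throughout blood lineages, had values of -0.29 to -0.02 and was not called. miR-223, of myeloid cells, was listed at 0 in every library, so the leukocyte sum does not cover it. Whether its reads were absent or were not counted was not tested. The leukocyte sum was 1681 to 3241 CPM CPM in the normal group and 1198 to 1868 CPM in the tumor group. Of 3 erythroid markers, 1, 0, 1 and 3 were lower in tumor at weeks 6, 8, 10 and 12 (1, 3, 2 and 3 with a replicate block). Their sums were 7797 to 34556 CPM in normal glands and 2060 to 13679 CPM in tumors. Of all tested miRNAs, 29.5%, 13.5%, 27.4% and 21.5% were called lower at these weeks. The block called 28.7% lower at week 8, and its other weeks were not split by direction. With 3 leukocyte and 3 erythroid markers tested, a count of 1 says little beside that background.

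Skeletal muscle miRNAs marked single libraries. Their sum was 89.0 to 89332 CPM CPM in the normal group and 39.9 to 18078 CPM in the tumor group, and 7 libraries, 4 normal and 3 tumor, had over 5000 CPM. At week 6 these were replicates 1 and 2 of both genotypes, and normal replicate 3, which had the highest miR-21 of the normal glands, had 93.6 CPM. Of the 3 muscle miRNAs tested, 0, 1, 0 and 3 were lower in tumor at weeks 6, 8, 10 and 12 (0, 2, 3 and 2 with a replicate block). Of all tested miRNAs, 29.5%, 13.5%, 27.4% and 21.5% were called lower, and 28.7% at week 8 with the block. At week 12 normal replicate 1 had 89332 CPM of muscle miRNAs, beside 2465 and 707 CPM in normal replicates 2 and 3. With the muscle miRNAs taken out of the counts, an alternative added after the data were seen, the log2 fold changes of miR-21 were -0.18, 0.29, 0.29 and -0.0027, with adjusted p of 0.171 or more in edgeR. With the 7 libraries left out they were -0.57, 0.30, 0.45 and -0.16, with adjusted p of 0.108 or more, where week 6 kept 1 library per genotype and borrowed the spread of the other groups. The mean difference over the weeks was -0.035 without the muscle miRNAs (exact permutation p = 0.708) and -0.023 without the libraries. It uses a scaling over all 24 libraries, while each fit above scales only the libraries it holds. It is therefore not the mean of the log2 fold changes just given. The part of this scaling in the change of sign was not tested.

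Lists of miRNAs described like miR-21 were set beside all tested miRNAs. miR-21 itself ranked 225 of 237 by mean absolute log2 fold change, so most tested miRNAs, listed or not, moved more than it did. Of 22 miRNAs often described as oncogenic in breast tumors, 20 were tested, and 9, 7, 13 and 12 were over-expressed in tumor at weeks 6, 8, 10 and 12, while 2, 2, 4 and 4 were under-expressed. Of all tested miRNAs, 29.1%, 21.9%, 32.9% and 29.1% were called higher and 29.5%, 13.5%, 27.4% and 21.5% lower. With a replicate block 9, 9, 13 and 11 of the list were over-expressed and 2, 2, 5 and 4 under-expressed. The block called 26.6% of all miRNAs higher and 28.7% lower at week 8. The median log2 fold changes of the list were 0.76, 0.74, 0.78 and 0.81, beside -0.12, -0.09, -0.15 and -0.19 for all miRNAs tested. miR-182 and miR-183, which are made from 1 transcript, rose at all 4 time points, with log2 fold changes of 1.79 to 2.21 and 2.03 to 2.43. Both are also among the epithelial markers. Several members of the list share a cluster, so its counts are not counts of independent miRNAs. miR-10b and miR-103 of the list fell at all 4 time points. miR-18a, of the miR-17-92 cluster, rose at weeks 6, 10 and 12 and had 1.68 (adjusted p = 0.0599 in edgeR) at week 8. miR-9 rose at weeks 10 and 12, by 2.51 and 5.57 on the log2 scale (SE 0.49 and 1.30). Its tumor means at these weeks were 79.1 and 1194 CPM, beside 13.8 and 25.0 CPM in normal glands. At week 8 miR-9 had 5.10 (SE 1.78, adjusted p = 0.0573 in edgeR) and did not pass. miR-155 and miR-107 were called at no time point, and miR-221 and miR-222 were listed at 0 in every library. Whether reads of miR-221 and miR-222 were absent or were not counted was not tested.

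Of 10 other miRNAs induced by inflammatory signalling, 6 were tested, and 1, 1, 2 and 2 were over-expressed and 0, 1, 2 and 1 under-expressed, beside 29.1%, 21.9%, 32.9% and 29.1% of all miRNAs called higher and 29.5%, 13.5%, 27.4% and 21.5% called lower. With 6 members such counts lie close to that background. The members that rose were miR-146b and miR-9. miR-132 fell at weeks 8 and 10 and miR-146a at weeks 10 and 12, the latter with log2 fold changes of -0.73 and -0.80. The medians were -0.06, 0.04, 0.10 and -0.17, near those of all miRNAs.

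Of 21 miRNAs described as tumor suppressive in breast tumors, 20 were tested. At weeks 6, 8, 10 and 12, 8, 7, 12 and 6 were under-expressed and 3, 1, 2 and 2 over-expressed. Of all miRNAs, 29.5%, 13.5%, 27.4% and 21.5% were called lower and 29.1%, 21.9%, 32.9% and 29.1% higher. With a replicate block 8, 10, 13 and 6 of the list were under-expressed and 1, 1, 2 and 2 over-expressed. The block called 28.7% of all miRNAs lower and 26.6% higher at week 8. The median log2 fold changes of the list were -0.52, -0.56, -0.70 and -0.42. miR-145, also a smooth muscle marker, had -1.16, -1.81, -1.92 and -1.58 and passed each time. miR-335, described as a suppressor of metastasis, passed at week 10 with -1.98. miR-31, described as a suppressor of invasion, went the other way, with 2.79, 3.83, 3.23 and 3.52.

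By Pearson r of log2 CPM over the 24 libraries, the miRNA whose level went most closely with that of miR-21 was miR-155, an NF-kB- and AP-1-responsive miRNA of activated immune cells.
miR-155-5p: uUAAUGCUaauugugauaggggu
This r was 0.63 (Spearman rho 0.60), and it was 0.64 for deviations from the group means. It was 0.71 in the 12 normal and 0.47 in the 12 tumor libraries, and 0.48 without the 2 libraries farthest from the median of miR-21. miR-155 was scarce, with 734 counts in all and 12 in its lowest library. Its group means lay between 11.4 and 16.6 CPM, and its log2 fold changes, -0.24 to 0.46, were not called at any time point. The r over all libraries is the highest of 236, but not that within groups, where miR-331 had 0.82, nor that in the normal glands, where miR-10b had 0.82, and it is a description over libraries that share preparation, lanes and scaling.

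Next came miR-466a (0.52), miR-331 (0.48), miR-99b (0.47) and miR-669o (0.45). miR-466a and miR-669o, both of the Sfmbt2 miRNA cluster, had 227 and 203 counts in all, too few for a firm order. For miR-331 the r of deviations from the group means was 0.82, above that over all libraries. Over the 236 miRNAs the median r was -0.02, and 2 exceeded 0.5.

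At the other end stood miR-378 (-0.61), miR-184 (-0.58) and miR-483 (-0.53). miR-378 lies in Ppargc1b, a gene of mitochondrial metabolism, and is linked to adipocytes. Within groups its r was -0.62, in the normal glands -0.57, in the tumors -0.64, and without the 2 farthest libraries -0.51. The normal gland with the least miR-21, replicate 1 of week 6 at 12311 CPM, had the most miR-378, 24304 CPM, and replicate 3 of week 6, with 20961 CPM of miR-21, had 5021 CPM of miR-378. Skeletal muscle markers moved with this, at 87491 CPM in the first and 93.6 CPM in the second, and the library with the next highest miR-378, normal replicate 1 of week 12 at 23578 CPM, had 89332 CPM of them. miR-1, miR-133a and miR-133b themselves had r of -0.47, -0.46 and -0.42 with miR-21. Their part in the relation with miR-378 was not tested. miR-483, hosted by Igf2, had 126 counts in all. For the miRNAs of both ends with a RefSeq entry under their name, miR-155, miR-331, miR-99b, miR-184 and miR-483, no arm had the seed of miR-21a-5p.

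**Figure D4:**
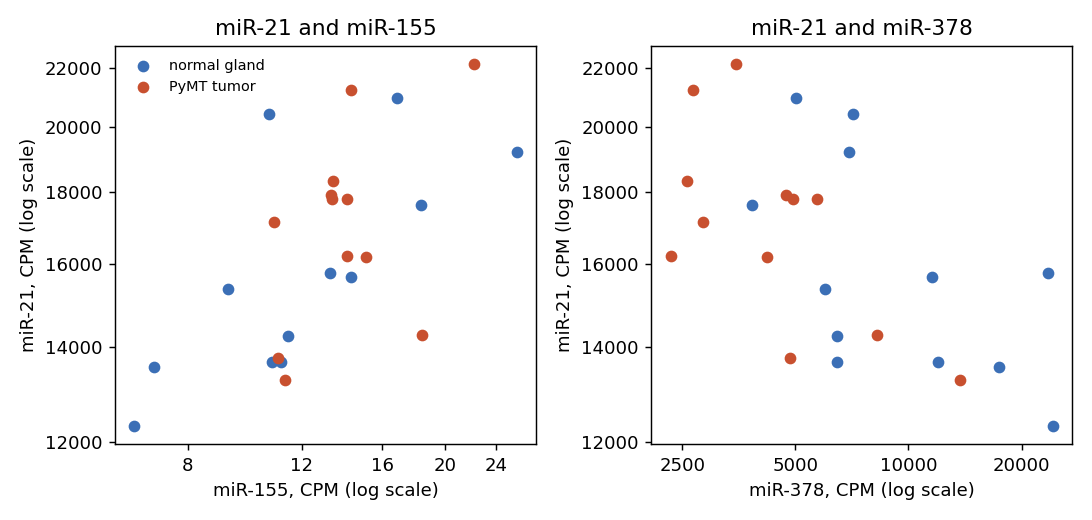
miR-21 against miR-155 (left) and miR-378 (right) in the 24 libraries, in TMM-scaled CPM on log axes, normal glands in blue and tumors in red. miR-21 is higher where miR-155 is higher (r = 0.63) and lower where miR-378 is higher (r = -0.61), in libraries of both genotypes.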

How the data were processed

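Small RNA libraries of total RNA from 24 mammary tissues, 3 per genotype and week, were used. The authors removed barcodes and adaptors, aligned reads of miRNA length with Bowtie (version not given in the sources used here), counted reads overlapping a miRBase miRNA, and deposited these counts without normalization. The paper names mm10 and the labels name mm9; the counts carry no coordinates, so positions given here come from the mm9 genome and its GENCODE annotation, and mature sequences from RefSeq on GRCm38.p6. Counts from multiply mapped reads are not described. Groups, replicates and lanes followed the labels. Same-numbered tumor and normal libraries deviated together (r of deviations from group means over 0.1) in all 3 pairs of weeks 6, 8 and 10 (r 0.20 to 0.82) and in 1 of 3 at week 12. No pairing is given in the labels or methods. The fit with a replicate block is therefore given for the counts of called miRNAs that it changes.

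Tumor and normal were compared per week by edgeR (version 4.0.16, R 4.3.3) on the 237 miRNAs kept by filterByExpr over 8 groups, with TMM scaling and quasi-likelihood F-tests, and p-values were adjusted by Benjamini-Hochberg with a threshold of 0.05. The SE is the log2 fold change over the square root of F, and intervals use the t distribution. Comparisons of weeks came from 1 fit of all 24 libraries. Correlations used log2 CPM with a prior count of 2. A floor of 3 counts equalled 0.763 to 2.91 CPM. Alternatives were DESeq2 1.42.0, other scaling, filters, lane, replicate block and left-out replicates, together with muscle and lane fits added after the data were seen. The scripts were tested on simulated data.

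Named miRNAs were miR-21, those sharing its seed, the 5 with the highest and 3 with the lowest correlation with it, the 2 next above and below in share, and up to 4 of each list with the largest mean change. miRNAs outside this rule (miR-148a, miR-10b, let-7c, miR-103, miR-107, miR-203, miR-205, miR-142 and those at 0) were named after their values were seen. The miRNA and the lists were chosen with earlier results of these data known. The result of 1 further list is not reported here.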

Additional observations from a re-analysis of the deposited data

How the results depend on the processing

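miR-21 was called at no week under any of the 12 alternative settings or the 6 fits that left out a replicate number of 1 genotype. Its sign changed in some of them: at week 6 the log2 fold change was 0.14 without normal replicate 3 (range over the left-out replicates -0.33 to 0.14), and at week 12 it was 0.065 with library sizes alone and 0.077 without tumor replicate 3 (range -0.21 to 0.077). The change from week 6 to week 12 in the tumor-normal difference was -0.17 without normal replicate 3 (range -0.17 to 0.14) and up to 0.46 under the other settings, and week 12 against week 6 in normal glands was -0.048 with library sizes alone. In tumors, week 12 against week 6 was called without the 5 most counted miRNAs (0.64, adjusted p = 0.0293 in edgeR; 0.22 or more, with p up to 0.526, over its alternatives). The causes were not tested.

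The mean difference over the weeks, 0.10, was -0.041 without the 5 most counted miRNAs, -0.035 without the muscle miRNAs, -0.023 without the libraries rich in them, 0.26 within lane 1, -0.056 within lane 2, and 0.024 to 0.22 with a replicate left out. These means use a scaling over all 24 libraries and are not means of the weekly fits. Library sizes alone moved the median log2 fold change of all miRNAs by -0.14, -0.13 and 0.18 at weeks 6, 8 and 12. Relative to that median miR-21 stood at -0.06, 0.37, 0.47 and 0.10 at weeks 6, 8, 10 and 12 with TMM, and at -0.07, 0.38, 0.47 and 0.07 with library sizes alone.

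The counts of called miRNAs were 139, 84, 143 and 120 at weeks 6, 8, 10 and 12. Without the libraries rich in muscle miRNAs they were 20 at week 6, from 1 library per genotype, and 93 at week 10. With a replicate left out they ran from 68 to 151, from 50 to 79, from 101 to 138 and from 80 to 121. With a replicate block the log2 fold changes of miR-21 were -0.14, 0.27, 0.31 and -0.08, none called. That fit called 135, 131, 158 and 117 miRNAs at weeks 6, 8, 10 and 12, and 45 rather than 48 were called at no week. Of the libraries, 9 of 12 tumor and 8 of 12 normal libraries correlated best with their own number. The r of miR-21 with miR-331 was 0.82 within groups. With 3 mice per group, not depth, limiting the precision, differences of miR-21 smaller than the intervals given could not be resolved.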
